A study of Mus musculus with 2 samples.

Results

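The nuclear genes for succinate dehydrogenase (complex II), the cytochrome bc1 complex (complex III), their electron carrier cytochrome c and ATP synthase were described in mouse gastrocnemius, the large calf muscle. Members were taken by gene name: Sdha to Sdhd, every name beginning with Uqcr or Atp5, Cyc1 and Cycs, provided that the gene had a protein-coding transcript and was not a pseudogene by name. This gave 32 of the 55536 genes in the tables, under 31 symbols, because 2 genes are called Atp5o. They comprise 4 genes of complex II, 9 of complex III, Cycs and 18 of ATP synthase, while 7 names that match are processed pseudogenes and were left out. No measured value entered the naming rule, although earlier results of these data were known when the members were chosen.

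Total RNA was sequenced from 2 female B6CASTF1/J mice aged 8 to 10 months, untreated as far as the labels say, with 1 library per animal. B6CASTF1/J denotes the F1 cross between B6 and CAST, so every autosomal gene is present in a B6 and a CAST copy, which the tables do not separate. Animal 1 is replicate 1 here and animal 3 is replicate 2; they form a single group, so there is no comparison between groups and no p-value. The labels list separate tissue samples with 1 donor identifier, so that the libraries come from separate animals rests on the animal numbers, and the spread between them may in part be technical.

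Complex II oxidises succinate in the citric acid cycle and hands the electrons to ubiquinone. Complex III passes them from ubiquinol to cytochrome c and pumps protons across the inner mitochondrial membrane. ATP synthase lets protons flow back through a rotating ring of c subunits in its membrane part, Fo, and this rotation drives ATP formation in its catalytic head, F1. Muscle fibres rich in mitochondria, the slow and oxidative ones, carry more of all these complexes than fast glycolytic fibres.

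The libraries held 42714567 and 43421652 expected counts, which are read numbers estimated per gene with ambiguous reads shared out. Levels are given as TPM, an abundance per transcript, which is a count divided by effective length and scaled to a fixed total. The small RNAs Rn7s1 and Rn7s2 took 27.0% of all TPM in replicate 1 and 33.6% in replicate 2. TPM values of other genes are accordingly lower in replicate 2: 29 of the 32 members had a lower TPM there, although 31 had a larger expected count and 30 a larger share of the TPM of nuclear protein-coding genes. Fast fibre markers summed to 94341 ± 8606 TPM, slow and oxidative fibre markers to 3629 ± 16.6 TPM, and Ucp1, which defines brown fat, had 0 counts in both libraries. A count of 0 allows up to 3 counts, or a CPM of 0.0702 and 0.0691 in the respective libraries, for counting error only. Errors throughout are SDs over the 2 animals.

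Together the 32 genes held 11391 TPM in replicate 1 and 10737 TPM in replicate 2, or 2.36% and 2.48% of the TPM of nuclear protein-coding genes. ATP synthase genes summed to 7094 ± 321 TPM, complex III genes to 3020 ± 117 TPM, complex II genes to 917 ± 22.5 TPM and Cycs to 32.2 ± 1.53 TPM (n = 2). Of the 32 genes, 31 reached 1 TPM in both animals and 28 reached 100 TPM in both. Atp5b alone, at 1678 ± 84.4 TPM, exceeded the sum of complex II and ranked 23 among 22015 nuclear protein-coding genes. The median member stood at 302 TPM. Of the 31 pairs of neighbours in the order of mean TPM, 17 had overlapping ranges over the animals and 14 did not. Compared within each library, 24 of the 31 pairs kept the same order in both. The order of the other 7 was reversed or tied in a library and is not resolved.

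**Figure D1:**
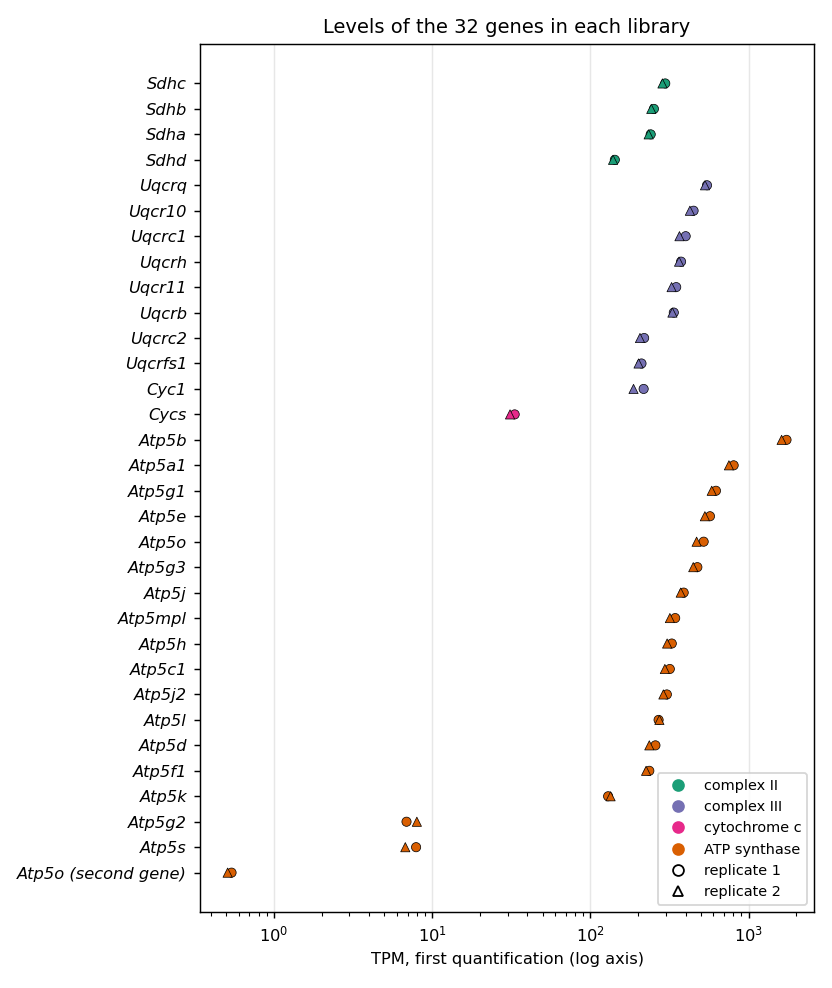
TPM of each of the 32 genes (log axis) in replicate 1 (circles) and replicate 2 (triangles), coloured by complex. The marks of a gene lie close together, 28 genes lie above 100 TPM in both libraries, and Cycs, Atp5g2, Atp5s and the second Atp5o gene lie far below the rest.

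The 4 complex II genes had mean levels from 141 to 292 TPM. Sdhc, a membrane anchor, was measured at 297 TPM in replicate 1 and 286 TPM in replicate 2. Sdhb, the iron-sulfur subunit, had 252 and 243 TPM, and Sdha, the flavoprotein that binds succinate, had 241 and 234 TPM. In each library Sdhc was the highest of the complex, whereas Sdhd, the other membrane anchor, was lower than all 3 in both libraries at 143 and 139 TPM. The ratio of Sdhc to Sdhd was 2.07 ± 0.0218 in TPM, although both proteins occupy the same membrane domain. Both the top place of Sdhc and this ratio include Sdhc-203, a coding model of 298 bases. It held 97.1 and 102 TPM from 539 and 648 counts. The longer models held 179 and 163 TPM (Sdhc-201) and 21.6 and 21.1 TPM (Sdhc-202). Without the short model Sdhc would lie below Sdhb and Sdha in both libraries. Sdha over Sdhb was 0.958 ± 0.00573 and lay below 1 in each library.

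Complex III spanned a wider range, with the small subunits Uqcrq and Uqcr10 at the top. Uqcrq, a small subunit, had 546 and 531 TPM. Uqcr10, a further small subunit, had 449 and 426 TPM. Uqcrc1, a core protein, had 400 and 366 TPM, and Uqcrh, the acidic hinge protein, had 375 and 364 TPM. These were the highest 4, and the ranges of Uqcrc1 and Uqcrh overlapped. Of the genes for the redox centres, Uqcrfs1, the Rieske iron-sulfur protein, had 211 and 202 TPM. Cyc1, cytochrome c1, had 217 and 187 TPM, the widest gap between animals, relative to the mean, among the complex III genes. The second core protein gene, Uqcrc2, at 219 and 206 TPM, was likewise near the bottom and overlapped both in range. In the second quantification Cyc1, with 302 and 261 TPM, lay above Uqcrc2, with 252 and 222 TPM, in both libraries. Uqcrc1 exceeded Uqcrc2 by 1.48 ± 0.0310-fold in the second quantification and by 1.80 ± 0.0382-fold in the first. Uqcr11 at 338 ± 16.0 TPM and Uqcrb at 334 ± 4.73 TPM, also small subunits, had overlapping ranges. The third catalytic subunit, cytochrome b, is encoded in mitochondrial DNA, outside the naming rule; mt-Cytb had 6581 and 6207 TPM.

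Cycs, the somatic cytochrome c gene at chr6:50562563-50566538 (minus strand, GRCm38, the assembly also called mm10), was low for a member of this set, with 33.3 TPM in replicate 1 and 31.1 TPM in replicate 2. Cyc1, its electron donor, exceeded it by 6.28 ± 0.354-fold. The Cycs value depended on which deposited quantification was read. A second quantification of the same libraries, made directly from reads, gave 142 and 131 TPM, which lowered that ratio to 2.06 ± 0.0933. Cyct, the cytochrome c gene of testis, had 0 counts in both libraries.

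In the F1 head of ATP synthase, the catalytic beta subunit gene Atp5b (chr10:128083273-128090391, plus strand) had 1737 and 1618 TPM. Atp5a1, the alpha subunit, had 805 and 752 TPM. The ratio of Atp5b to Atp5a1 was 2.16 ± 0.00380 over all transcripts of each gene. It was 1.38 ± 0.0259 over protein-coding transcripts alone, because part of the Atp5b TPM lay on models without a protein. Atp5e, the epsilon subunit of the central stalk, had 570 and 530 TPM, and Atp5d, the delta subunit beside it, had 258 and 236 TPM. Atp5c1, the gamma subunit that turns inside the head, had 318 and 296 TPM, so Atp5b exceeded it by 5.47 ± 0.00296-fold. The corresponding ratios in the second quantification were 2.13 ± 0.0319 for Atp5b over Atp5a1 and 5.91 ± 0.0550 for Atp5b over Atp5c1.

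The gamma gene Atp5c1 (chr2:10056016-10080510, minus strand) is known for a short exon near its end that is skipped in heart and skeletal muscle. The exon lies at chr2:10056770-10056806 and has 37 bases. The coding ends of the transcript with it, Atp5c1-203, and of the transcript without it, Atp5c1-201, are shown because they are what distinguishes the isoforms; lower case marks the 30 bases before the junction and capitals mark what follows, through the stop codon TAA.
Atp5c1-203: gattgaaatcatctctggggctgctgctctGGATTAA
Atp5c1-201: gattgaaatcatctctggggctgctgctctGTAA
The exon adds 4 coding bases before a stop, and without it the stop follows after 1 base, so the coding lengths are 298 and 297 codons. Atp5c1-201, the form without the exon, held 95.8% of the gene's TPM in replicate 1 and 96.9% in replicate 2, against 3.50% and 2.33% for Atp5c1-203. In the second quantification the same form held 53.8% and 53.4%, and Atp5c1-203 held 42.9% and 36.9%. The skipped form led in both quantifications and both libraries, but its share moved from 96.3% to 53.6%. The models also differ elsewhere, since Atp5c1-203 starts 83 bases earlier and Atp5c1-201 runs 14 bases further, so the share does not rest on reads over the exon alone.

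Subunit c, which forms the proton-carrying ring, is encoded by 3 genes, Atp5g1 (chr11:96068852-96075670), Atp5g2 (chr15:102662864-102672352) and Atp5g3 (chr2:73908447-73911326), all on the minus strand. Their targeting peptides differ, and the last 78 residues of each protein are the same, so only synonymous bases tell the transcripts apart over that stretch of 234 bases. The coding sequences of the stretch are shown for that reason, with the 63 positions at which the 3 genes are not all alike in capitals.
Atp5g1: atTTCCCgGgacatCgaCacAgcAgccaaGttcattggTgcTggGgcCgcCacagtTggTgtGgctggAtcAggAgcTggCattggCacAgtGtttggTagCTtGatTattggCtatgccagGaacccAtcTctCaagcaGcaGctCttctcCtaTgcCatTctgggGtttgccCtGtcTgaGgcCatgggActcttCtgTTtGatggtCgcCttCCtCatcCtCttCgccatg
Atp5g2: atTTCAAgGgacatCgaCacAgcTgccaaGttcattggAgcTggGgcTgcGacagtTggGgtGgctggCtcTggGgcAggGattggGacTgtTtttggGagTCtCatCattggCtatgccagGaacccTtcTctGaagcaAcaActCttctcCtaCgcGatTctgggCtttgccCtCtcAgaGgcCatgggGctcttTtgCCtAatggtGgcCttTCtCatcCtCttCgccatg
Atp5g3: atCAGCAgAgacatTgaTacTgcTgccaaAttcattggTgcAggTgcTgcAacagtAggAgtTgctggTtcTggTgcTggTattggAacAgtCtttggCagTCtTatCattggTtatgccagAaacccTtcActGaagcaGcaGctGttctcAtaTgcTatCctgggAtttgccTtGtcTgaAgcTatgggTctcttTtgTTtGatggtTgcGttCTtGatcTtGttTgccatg
Atp5g1 and Atp5g2 are identical at 84.6% of the bases, Atp5g1 and Atp5g3 at 78.6%, and Atp5g2 and Atp5g3 at 77.4%. The longest unbroken match between any pair is 20 bases.

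Of the 3 subunit c genes, Atp5g1 had 622 and 585 TPM, Atp5g3 had 475 and 447 TPM, and Atp5g2 had 6.89 and 8.01 TPM. Their shares of the subunit c TPM were 56.3 ± 0.0913%, 43.0 ± 0.0117% and 0.697 ± 0.103%. The order of Atp5g1 over Atp5g3 held in both animals, with a ratio of 1.31 ± 0.00177. In the second quantification the shares were 43.9 ± 0.165% for Atp5g1, 39.8 ± 0.635% for Atp5g3 and 16.3 ± 0.801% for Atp5g2. Atp5g1 led in both, whereas the level of Atp5g2 was 22.5 times higher in the second, at 182 and 153 TPM. The posterior SD of the Atp5g2 count, which measures how uncertainly ambiguous reads were assigned, was 25.0% and 19.5% of its mean. Its deposited credibility interval ran from 3.89 to 11.5 TPM in replicate 1 and from 5.51 to 12.5 TPM in replicate 2.

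The peripheral stalk, which holds the head still against the turning ring, had its highest level in the first quantification at Atp5o (chr16:91925214-91931687, minus strand). This gene, the oligomycin sensitivity protein, had 520 and 470 TPM, the largest gap between animals among stalk genes. Atp5j, coupling factor 6, had 389 and 373 TPM, Atp5h, subunit d, had 327 and 306 TPM, and Atp5f1, subunit b, had 236 and 225 TPM. The ranges of the 4 stalk genes did not overlap. In the second quantification Atp5j, with 481 and 449 TPM, stood above Atp5o, with 459 and 410 TPM, in both libraries. The second gene named Atp5o spans chr16:91684398-91926982 on the same strand and overlaps the first. It had 0.54 and 0.51 TPM from 6.53 and 7.05 counts, with posterior SDs of 62.1% and 59.9%, and shared 257 of its 31-base words with the neighbouring gene Donson, so its level is uncertain.

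The small membrane proteins of Fo are thought to help ATP synthase form rows of dimers. Atp5mpl had 344 and 318 TPM, Atp5j2, subunit f, had 305 and 290 TPM, and Atp5l, subunit g, had 270 and 273 TPM. Atp5k, subunit e, was lower at 130 and 134 TPM. Usmg5, a further small ATP synthase protein that the naming rule does not take, had 523 and 512 TPM. The lowest member outside the uncertain ones was Atp5s, coupling factor B, with 7.92 and 6.77 TPM from 264 and 260 counts. The mitochondrial genes mt-Atp6 and mt-Atp8, which overlap in the mitochondrial genome, had 2884 ± 627 TPM and 1460 ± 268 TPM. In the second quantification they had 8508 ± 887 and 1.41 ± 0.244 TPM, so no level relative to the nuclear subunits is drawn from them.

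For most members the quantifications differed by less than 1.5-fold, although 28 of the 32 TPM values differed by more than 1 SD over the animals. Of 31 members at 1 TPM or more, 28 were within 1.5-fold, 16 were lower in the second and 15 higher. The median log2 ratio of second over first was -0.008 for these members and -0.205 for all genes at that level. Atp5g2 and Cycs, at 22.5-fold and 4.24-fold, differed by at least 2-fold, that is 2 of 31 beside 4.89% of all such genes. Atp5e differed by 1.59-fold, from 550 ± 28.8 to 874 ± 57.0 TPM. With these values Atp5e stood above Atp5a1, at 685 ± 50.8 TPM in the second quantification, and below it in the first. The sums by complex were less affected: ATP synthase had 7124 ± 423 TPM, complex III 3107 ± 180 TPM and complex II 832 ± 46.1 TPM.

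**Figure D2:**
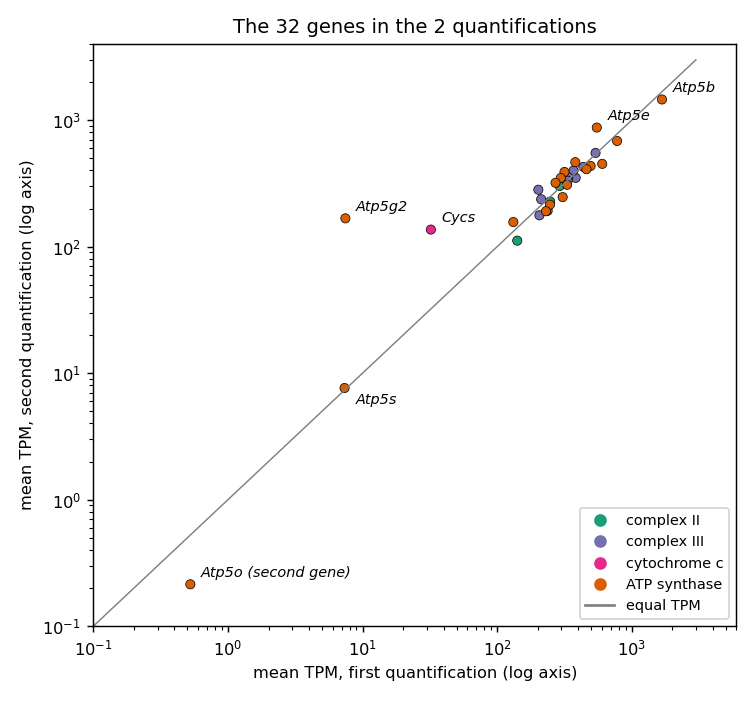
Mean TPM of the 32 genes in the first quantification (horizontal) and the second (vertical), both on log axes, with a line of equal TPM. Most genes lie on or near the line, Atp5g2 lies 22.5-fold and Cycs 4.24-fold above it, and the second Atp5o gene lies below it.

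Several members have near copies elsewhere in the genome. Counting genes that share at least 200 words of 31 bases with a member's transcripts, and leaving out the second Atp5o gene, 7 members had 12 near copies, of which 11 are annotated as processed pseudogenes. In the first quantification 7 of the 12 had at least 100 counts in both libraries, and in the second 3 did. Gm10175, a transcribed processed pseudogene at chr7:23946646-23947290, shares 37.5% of the words of Atp5g2. In the first quantification it received 4172 and 4602 counts, while Atp5g2 received 122 and 162. In the second it received 1116 and 1652 counts, while Atp5g2 received 3333 and 3286. The sum of gene and copy was 4294 and 4764 counts in the first and 4449 and 4938 in the second, a ratio of 1.04 in each library. Which of the pair the RNA came from cannot be told apart with these tables.

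For Cycs the main near copy was Gm10053 (chr19:24875686-24876631), which is annotated as protein coding and shares 26.2% of the words of Cycs. It received 4668 and 5032 counts in the first quantification and 3450 and 3509 in the second, against 2807 and 2996 and then 4530 and 4909 for Cycs. With all 3 near copies of Cycs added, the totals were 7976 and 8396 counts in the first and 7980 and 8418 in the second. Thus the gene and its copies held nearly the same number of reads in both, divided differently. The count of Cycs itself was 1.61-fold and 1.64-fold higher in the second, less than the 4.27-fold and 4.21-fold of its TPM. TPM also divides by length, and the leading Cycs transcript had 3123 bases in the first quantification and 607 in the second. Only Gm10108, at 500 and 367 counts, was a further near copy of Cycs with any counts, and it had 0 in the second.

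Pairs with smaller exchanges included Atp5h, a stalk gene, with 4530 and 4902 counts beside 1117 and 1259 for its copy Gm10250. The copy had 0 counts in the second quantification, in which Atp5h had 5181 and 5632. Gm10221, a copy of Atp5l, had 1889 and 2135 counts in the first and 0 in the second. Here the gene gained little, from 3358 and 3929 to 3601 and 4204 counts, so that the total over gene and copies fell to 0.687 and 0.693 of its first value. Gm10039, a copy of Atp5g1, had 420 and 229 counts and then 4.08 and 0. Gm5436, a copy of Atp5o, moved the other way, from 140 and 158 to 615 and 689 counts. The TPM values of Atp5g1, Atp5h, Atp5l and Atp5o differed by less than 1.5-fold between the quantifications. The posterior SD of the count was 0 in both libraries for 21 of the 32 members and exceeded 5% of the mean for 2, Atp5g2 and the second Atp5o gene.

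**Figure D3:**
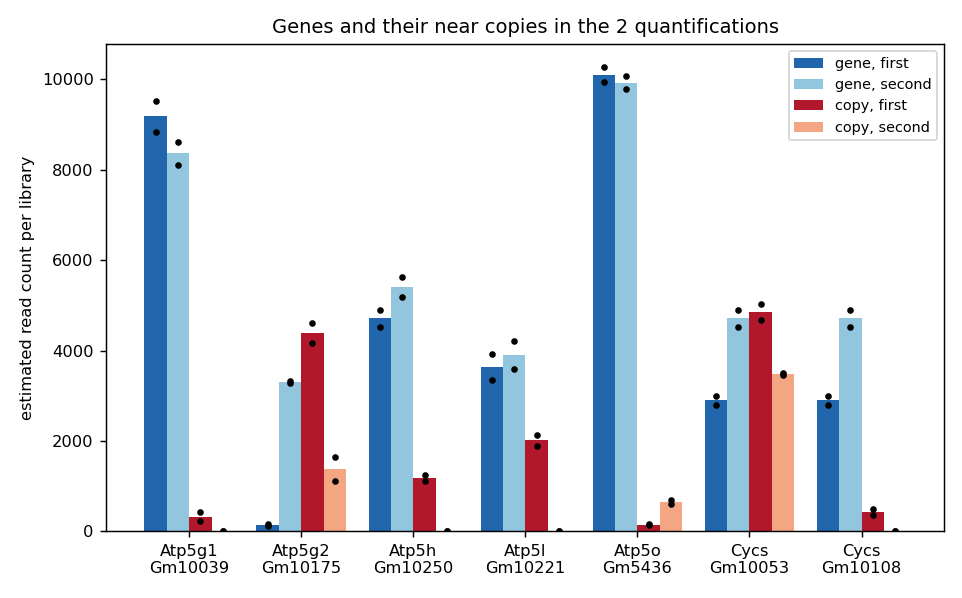
Mean estimated counts of 6 genes (blue shades) and of 7 near copies (red shades) in the first and second quantification; each pair is named under its bars and black dots are the 2 libraries. Gm10175 and Gm10053 receive more reads than Atp5g2 and Cycs in the first quantification and fewer in the second.

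Most members were represented by a coding transcript. Over the 29 members at 10 TPM or more, the median share of TPM on protein-coding transcripts was 99.2%, against 96.9% for all nuclear protein-coding genes at that level. In 2 of the 29 the share was under 50%, beside 7.14% of all such genes. Uqcrh had 29.6% and 29.8% on coding transcripts, and its retained-intron model Uqcrh-205 held 66.6 ± 0.431% of its TPM. Atp5j had 7.34% and 7.12%, and its retained-intron model Atp5j-208 held 91.5 ± 0.0707%. In the second quantification the coding shares were 40.4 ± 3.42% for Uqcrh and 31.6 ± 1.30% for Atp5j, still under 50% in both libraries. As the reads were assigned, the gene levels of Uqcrh and Atp5j given above therefore lay mostly on models with no annotated protein. The assignment among models differed between the quantifications, and which model the reads came from was not tested.

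Among the other genes, Atp5f1 had 51.2 ± 0.233% of its TPM on coding transcripts, with 47.6 ± 0.212% on Atp5f1-203, a model annotated as a target of nonsense-mediated decay. The highest member, Atp5b, had 62.6 ± 0.849% on its coding transcript, Atp5b-201, and 29.0 ± 0.509% on the short processed transcript Atp5b-206. In counts, which do not divide by length, Atp5b-201 had 54927 and 59766, whereas Atp5b-206 had 5411 and 5634. On coding transcripts alone the 18 ATP synthase genes summed to 5801 TPM and the 9 complex III genes to 2623 TPM, so their order was the same.

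Among 27 members with several transcripts and at least 10 TPM, the same transcript led in both libraries for 27 in the first quantification. For 5 of the 27 the leading transcript was not the same in both libraries and both quantifications, beside 26.5% of all such genes. Cycs was led by its coding transcript Cycs-202, at 99.2 ± 0.318%, in the first quantification and by the retained-intron model Cycs-201, at 80.7 ± 0.0407%, in the second. Cyc1 had 87.4 ± 4.84% on coding transcripts in the first and 25.5 ± 2.08% in the second, where Cyc1-202, a decay target, led with 43.8 ± 0.164%. In Atp5g1 the lead passed between coding transcripts, from Atp5g1-202 at 99.2% to Atp5g1-203 at 99.6%. In Atp5g3 it passed from Atp5g3-201 at 79.2% to Atp5g3-202, whose share in the second quantification was 97.1% in replicate 1 and 54.1% in replicate 2. Atp5h passed from Atp5h-201 at 70.2% to Atp5h-203 at 48.3%.

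**Figure D4:**
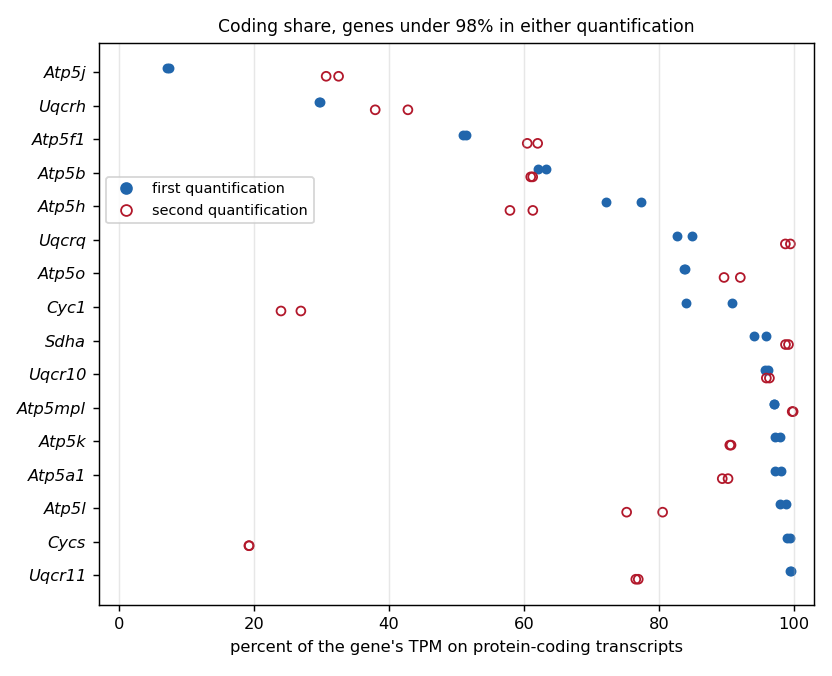
Percent of a gene's TPM on protein-coding transcripts in the first (filled) and second (open) quantification, 1 mark per library, for the 16 genes under 98% in either. Atp5j and Uqcrh lie below 50% in both, while Cycs and Cyc1 do so in the second alone.

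The animals were compared by log2 ratios of replicate 2 over replicate 1, from counts scaled by TMM, over 11125 genes with a mean count of at least 50, of which 31 were members. The members' median log2 ratio was 0.09 and the SD over them 0.0706, against 0.00 and 0.358 over all genes. The genes were not matched for count. All genes reach down to a mean count of 50, whereas most members had far larger counts, so the SDs cannot be compared directly. None of the 31 differed by 2-fold, which is close to the share of 1.39% over all genes. At a log2 ratio of at least 0.32 in size, 1 was higher in replicate 2, beside 6.59% of all genes, and 0 were higher in replicate 1, beside 11.0%. The 1 gene was Atp5g2, with a log2 ratio of 0.38, which rests on the uncertain count described above and became -0.04 with counts of the second quantification.

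By direction, 30 of the 31 members were above 0, beside 49.4% of all genes. Atp5k with 0.22 and Atp5l with 0.20 followed Atp5g2, and Atp5s with -0.04, Atp5o with 0.02 and Atp5d with 0.05 were at the other end. The medians were 0.11 for complex II, 0.10 for complex III, 0.08 for ATP synthase and 0.07 for Cycs alone. This direction depended on the scaling. When the libraries were scaled by the ERCC spike-ins, 6 members were above 0 and 25 below, beside 22.7% of all genes above 0, and the members' median was -0.03. That scaling shifts all ratios by about the same amount and moved the median of all genes to -0.12. The members' median lay 0.09 above that of all genes under either, which follows from the common shift and is no separate check. Each ratio compares 1 library with 1 other, and under TMM scaling Atp5g2 alone lies beyond 0.32.

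**Figure D5:**
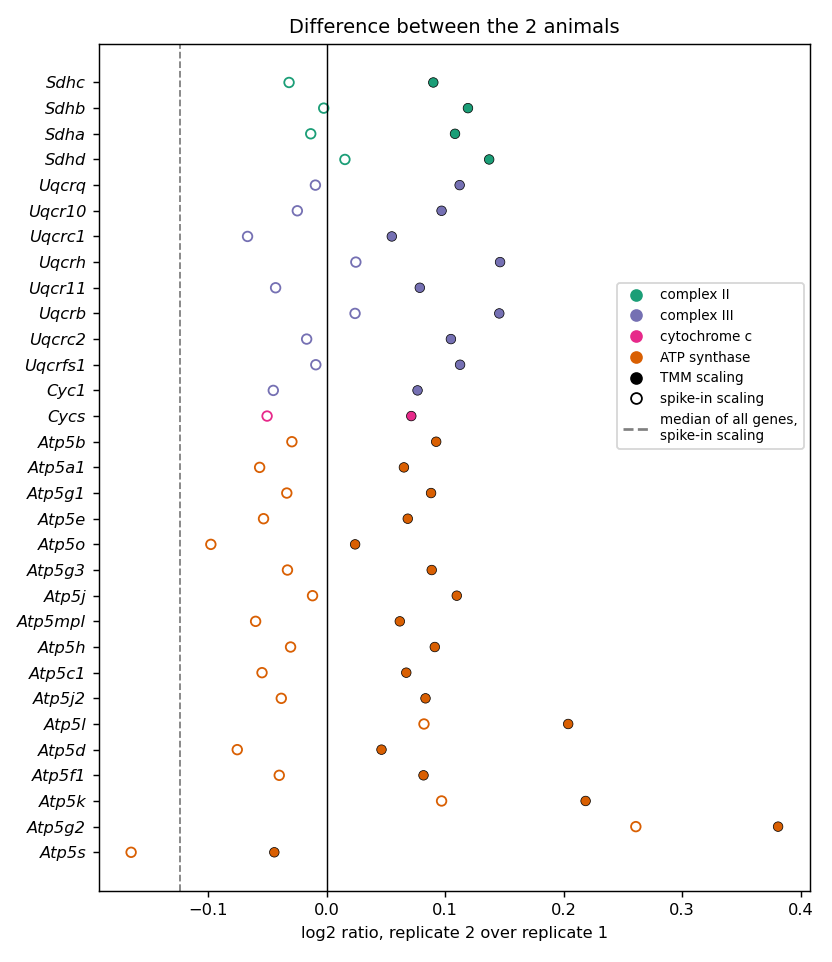
Log2 ratio of replicate 2 over replicate 1 for the 31 members tested, coloured by complex, under TMM scaling (filled) and spike-in scaling (open); the dashed line is the median of all genes under spike-in scaling. Under TMM all members but Atp5s lie right of 0, under spike-in scaling 25 lie left of 0, and 30 of the open marks lie right of the dashed line.

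Markers of fibre types and other cells of the tissue were compared in the same way. All 8 slow and oxidative fibre markers were above 0, with a median of 0.19 (0.06 by spike-ins, 6 of 8 above 0), while 1 of 7 fast fibre markers was above 0, with a median of -0.02. The 4 Schwann cell and nerve markers were each at least 2-fold lower in replicate 2, at a median of -2.15, and summed to 53.2 TPM in replicate 1 and 11.5 TPM in replicate 2. Endothelial markers had a median of -0.15 (1 of 4 above 0), fibroblast markers -0.26 (0 of 3) and erythroid markers -0.27 (0 of 2). In bulk tissue, a difference in the number of cells of a type and a difference in RNA per cell cannot be told apart. The part of these cell types in the members' shift was not tested. The 36 complex I genes measured in the same libraries had a median of 0.07, with 32 above 0, and -0.05 with 4 above 0 by spike-ins.

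The 15 assembly genes, whose products build these complexes, were all detected and summed to 546 ± 43.6 TPM, less than the 4 subunits of complex II. Of these, Uqcc2, a factor for cytochrome b, had 220 and 198 TPM, a level within the range of the complex III subunits. Sdhaf1, which helps insert iron-sulfur clusters into SDHB, had 3.15 and 3.08 TPM, and Hccs, which attaches haem to cytochrome c and c1, had 13.1 and 12.5 TPM. Atpaf1 and Atpaf2, chaperones of the beta and alpha subunits of F1, had 25.3 ± 3.21 and 14.4 ± 2.49 TPM. Of the 15, 11 had a log2 ratio above 0 between the animals, with a median of 0.06, and 0 were beyond 0.32 in size; by spike-ins 4 were above 0 and the median was -0.06. Atpif1, the inhibitor of ATP synthase, had 24.6 and 20.2 TPM.

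Genes of the respiratory chain are known targets of the factors NRF1, GABPA, which binds ETS-type sites, and the oestrogen-related receptors. Their own transcripts were measured at 4.65 ± 0.240 TPM for Nrf1, 9.23 ± 0.799 TPM for Gabpa and 40.1 ± 2.35 TPM for Esrra, and the coactivator Ppargc1a had 28.4 and 18.3 TPM, with a log2 ratio of -0.31. The 250 bases before the start were searched on both strands in RefSeq promoters (GRCm38.p6) for 24 of the 32 members. Atp5a1 and the second Atp5o gene were among the members not searched, which does not mean that RefSeq lacks them. GCGCANGCGC, an NRF1-type motif, was present for 6 of 24 members, or 25.0%, against 4.23% of 27025 genes and 5.84% of the 17492 protein-coding ones. CCGGAAG, an ETS-type motif, was present for 7 members, or 29.2%, against 7.83% and 10.2%. TCAAGGTCA, a motif of oestrogen-related receptors, was present for Atp5g3 alone, against 0.422% of genes. The motifs do not overlap one another in the promoters shown.

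The promoters of 2 complex II genes illustrate these matches, which are in capitals; Sdha has 3 of the NRF1 type, and Sdhd has 1 of the NRF1 type and 1 of the ETS type, read on the opposite strand. The promoter window of Sdha lies at chr13:74350241-74350490 and that of Sdhd at chr9:50603850-50604099, both on the minus strand.
Sdha: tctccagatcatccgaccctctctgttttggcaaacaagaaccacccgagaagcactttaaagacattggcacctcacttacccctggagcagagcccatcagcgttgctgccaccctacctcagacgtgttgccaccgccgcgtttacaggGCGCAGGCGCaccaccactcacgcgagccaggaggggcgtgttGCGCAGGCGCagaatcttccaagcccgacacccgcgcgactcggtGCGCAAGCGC
Sdhd: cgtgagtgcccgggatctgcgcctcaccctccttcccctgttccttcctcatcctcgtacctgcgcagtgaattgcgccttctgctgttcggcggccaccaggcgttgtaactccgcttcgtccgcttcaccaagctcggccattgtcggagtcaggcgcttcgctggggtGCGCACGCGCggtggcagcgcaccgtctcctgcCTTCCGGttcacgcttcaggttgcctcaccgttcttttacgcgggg
A match describes letters in this window and is no evidence of binding, and no binding was measured. Sdha and Sdhd, with the motifs, differed between animals by log2 ratios of 0.11 and 0.14. Sdhb, with none of the 3 motifs in its window, differed by 0.12. A link between motifs and these ratios was not tested.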

How the data were processed

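Total RNA-seq of gastrocnemius was read for 2 libraries, each from 300 ng of RNA with ERCC spike-ins, per the labels. The authors deposited expected counts per gene and transcript, not normalized, in which ambiguous reads are split between candidates. The deposited TPM values correct these for effective length and fill 1 fixed sum in each library, spike-ins and small RNAs included. The deposited percent values state how much of a gene's TPM a transcript holds. The first quantification used alignments to the transcriptome and the second used reads directly, on mm10 with GENCODE M21, per the deposited descriptions; aligner and version were not given in the sources used here.

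Gene values of the second quantification are sums over transcripts. Log2 ratios came from rounded expected counts in edgeR 4.0.16 (R 4.3.3), with TMM scaling, a prior count of 2 and a minimum mean count of 50; the common biological coefficient of variation was 0.124. With 1 group no p-value was computed. A gene was detected at 1 TPM in both animals. It counted as having shared reads where its posterior SD was over 5% of the mean count in either. Words of 31 bases were compared over GENCODE M21 transcripts, in which all 55536 gene identifiers were found. The steps for the log2 ratios and the common coefficient of variation were tested on simulated counts.

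Every member is accounted for. Full values are given for the 4 highest and the lowest of each complex, the subunit c genes, Cycs and Cyc1, the 3 largest log2 ratios each way, members with shared reads, and members whose leading transcript changes. Near copies were chosen after their values were seen. The members and lists were chosen with earlier results of these data known. Alternatives were size factors of DESeq2 1.42.0, scaling by spike-ins, prior count 0.5, a count minimum of 10 or none, TPM thresholds of 0.5 and 5, posterior mean TPM, rescaling over nuclear protein-coding genes, the second quantification, removal of members with shared reads and removal of each animal. Coding transcripts only (for the sums and for Atp5b over Atp5a1) and added near copies were chosen after seeing the data. Python 3.11.15 with pandas 2.3.3, NumPy 2.4.6 and matplotlib 3.10.9 was used for tables and plots.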

Additional observations from a re-analysis of the deposited data

How the results depend on the processing

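With 2 animals in 1 group, spread is known only as an SD over 2 values. By the posterior SD rule, shared reads limit Atp5g2 and the second Atp5o gene. That rule does not take Cycs, Atp5h or Atp5l, although counts of these genes and their near copies also differed between the quantifications. The run without shared reads therefore still contains them. No paired analysis was possible because a single group leaves nothing to pair. Without either animal the summed TPM was 10737 to 11391 for all members, 901 to 933 for complex II, 2938 to 3103 for complex III and 6867 to 7321 for ATP synthase. With TPM rescaled so that nuclear protein-coding genes alone fill the fixed total, the sums were 24209, 2009, 6610 and 15520. On protein-coding transcripts alone they were 9359 TPM for all members, 2623 for complex III and 5801 for ATP synthase. Adding near copies gave 7832 TPM for ATP synthase, and the second quantification gave 832 TPM for complex II. Detected members numbered 31 or 32 under each alternative run. The median log2 ratio became -0.032 by spike-ins, with 6 members above 0; the other 6 alternatives kept 29 or 30 above 0. Atp5g2 was the 1 member higher in replicate 2 by a log2 ratio of 0.32 or more; there were 0 by spike-ins, by the second quantification (log2 ratio -0.042) and without shared reads. None reached 2-fold under any alternative run. The second quantification gave shares of 43.9% for Atp5g1, 16.3% for Atp5g2, 39.8% for Atp5g3 and 53.6% for Atp5c1-201; single animals gave 56.2 to 56.4%, 0.624 to 0.770%, 43.0% and 95.8 to 96.9%. Of 216 single-gene log2 ratios under alternatives, 33 moved by more than the SD over members, 31 of them by spike-ins and the largest that of Atp5g2 above. On coding transcripts the ratio of Atp5b to Atp5a1 was 1.38. Of 32 member TPM values, 28 differed by more than 1 SD in the second quantification. Apart from these definitions, the cause was not tested.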
